A study of Mus musculus with 4 samples.

Results

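The cells described here are young neurons of the embryonic mouse hypothalamus at E14 that carried RNA of the transcription factors Meis2 and Sp8 or Sp9. They were chosen by counts of UMIs, the molecular tags that mark single captured RNA molecules. A cell of the second E14 run was taken when it held at least 3 UMIs of Meis2, at least 1 UMI of Sp8 and Sp9 together, and at least 3 UMIs of Stmn2 and Dcx together. These 940 cells were 5.60% of the 16794 cells of that run, out of 43261 cells in the whole series. Stmn2 and Dcx encode proteins that bind tubulin in young neurons, and the 15305 cells of the run with at least 3 UMIs of these genes together are called neurons here. The cells of the rule, called Meis2 Sp8/Sp9 neurons from here on, were 6.14% of these neurons (95% exact binomial interval 5.77 to 6.53).

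The study followed cells of the Rax lineage in C57BL/6J mice of the genotype Rax-CreERT2::Ai14. In such animals the promoter of Rax, a gene of the early hypothalamic neuroepithelium, drives a Cre that works only in the presence of tamoxifen, and Cre switches on the red fluorescent protein tdTomato for good. Tamoxifen was given once to label the neuroepithelium, hypothalami were dissected at ages titled E11, E14, P0 and P7 (E11.5, E14.5, P0 and P7.5 in the age labels), and live tdTomato-positive cells were sorted for single-cell RNA sequencing. All 4 ages carried the same genotype and dose, and there was 1 sample per age, so no test between groups is possible and intervals cover counting error only. The day of induction is given as E9 in the design text and as E9.5 in the protocol. The labels do not give how many animals entered a sample, and cell names split all ages but P7 into 2 runs.

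As background, Meis2 belongs to a class of homeodomain proteins that bind DNA together with Pbx proteins. Sp8 and Sp9 are related zinc finger factors, best known from the ganglionic eminences of the telencephalon, where with the Dlx genes they act in the making of GABA neurons that populate the striatum and the olfactory bulb. In the hypothalamus and the adjoining prethalamus, Dlx genes also mark precursors of GABA neurons, while Otp, Sim1 and Nkx2-1 mark other territories.

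The 3 factors of the rule lie on 2 chromosomes of the mouse build GRCm38. Meis2 occupies chr2:115863064-116065839 on the minus strand, Sp9 chr2:73271925-73284706 and Sp8 chr12:118846329-118852576, both on the plus strand. Promoter windows are shown for Sp8 and Sp9, which admitted cells to the group, and for Zfp503 and Slc9a3r1, which were high in neurons with Meis2 whether or not Sp8 or Sp9 was seen. Each window is the 250 bases before a RefSeq start (GRCm38.p6), 5′ to 3′ on the gene's strand. They lie at chr12:118846079-118846328 for the first of 3 Sp8 windows, chr2:73271676-73271925 for Sp9, chr14:21989602-21989851 on the minus strand for Zfp503 and chr11:115163091-115163340 for Slc9a3r1. Capitals mark matches on either strand to 3 motifs: TGACAG, the core bound by Meis proteins, GGGCGG, the GC box bound by Sp proteins, and TAATTA, a homeodomain core.
Sp8: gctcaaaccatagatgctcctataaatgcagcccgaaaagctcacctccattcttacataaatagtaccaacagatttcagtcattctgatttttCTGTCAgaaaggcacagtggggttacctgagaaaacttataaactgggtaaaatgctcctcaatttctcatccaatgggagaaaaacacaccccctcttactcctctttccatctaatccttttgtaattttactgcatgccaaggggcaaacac
Sp9: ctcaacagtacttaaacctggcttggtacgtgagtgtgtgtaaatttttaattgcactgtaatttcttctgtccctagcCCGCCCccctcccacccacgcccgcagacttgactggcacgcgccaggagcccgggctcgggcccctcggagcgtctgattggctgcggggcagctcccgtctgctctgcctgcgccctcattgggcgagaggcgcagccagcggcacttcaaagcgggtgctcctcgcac
Zfp503: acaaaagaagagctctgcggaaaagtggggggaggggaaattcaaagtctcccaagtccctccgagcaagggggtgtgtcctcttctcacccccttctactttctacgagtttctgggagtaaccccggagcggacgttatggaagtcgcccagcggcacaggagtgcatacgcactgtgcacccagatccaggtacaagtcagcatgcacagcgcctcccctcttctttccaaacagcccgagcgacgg
Slc9a3r1: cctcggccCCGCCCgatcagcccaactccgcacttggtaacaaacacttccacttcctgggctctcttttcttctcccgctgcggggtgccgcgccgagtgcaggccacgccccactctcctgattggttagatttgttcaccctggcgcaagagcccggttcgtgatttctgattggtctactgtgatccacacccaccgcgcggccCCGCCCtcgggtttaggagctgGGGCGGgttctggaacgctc

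The Sp8 window shown held 1 match to TGACAG, read on the other strand as CTGTCA, the Sp9 window held 1 match to GGGCGG and the Slc9a3r1 window held 3. The other Sp8 windows held no TGACAG, the second 1 GGGCGG and the third 1 TAATTA. These windows, not printed, lie within the span of Sp8 given above, and 21 bases of the third are in an annotated untranslated region. No match to any of the 3 motifs was in the Zfp503 window. Among the 32851 RefSeq windows of the same length, 15.9% held TGACAG, 32.7% held GGGCGG and 4.84% held TAATTA on either strand. Pbx3 was looked up and not matched. The window of Meis2 held none of the 3 motifs and is not printed, since it reached into the annotated transcript.

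The Meis2 Sp8/Sp9 neurons had a median of 8133.5 UMIs (range 3418 to 31768) against 8670 in the 14365 other neurons of the run. Scrublet called 1525 of the run's 16794 cells doublets (9.08%), 15.6% of the Meis2 Sp8/Sp9 neurons and 9.52% of the other neurons, and all were kept. The second E14 run shared 0 to 43 cell barcodes with each other run. The first E14 run stood apart: over 13675 genes, the summed log2 profile of its neurons had a correlation of 0.963 with the first E11 run, 0.936 with the second and 0.926 with the second E14 run, a description across genes that share libraries. It entered no result on the second run. Both X-inactivation RNA and Y-linked RNA were found, so the run held cells of at least 1 female and 1 male. Of the Meis2 Sp8/Sp9 neurons, 717 held Xist and no Y-linked UMI, 90 the reverse, 78 both and 55 neither.

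The genes that chose the cells are described without a comparison. Meis2 ran from 3 to 46 UMIs per cell with a median of 10. Sp9 was seen in 79.3% of the cells and Sp8 in 51.9%, with 452 cells holding Sp9 only, 195 Sp8 only and 293 both. Of the run's 1537 neurons with at least 3 Meis2 UMIs, 61.2% held Sp8 or Sp9. Of its 3463 neurons with Sp8 or Sp9, 27.1% held at least 3 Meis2 UMIs.

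At the edges of the rule the levels changed in steps of different size. The 78 cells with exactly 3 Meis2 UMIs carried 395 CPM of Gad2 and 566 of Isl1, where CPM is the UMIs of a gene per 1000000 UMIs summed over a group of cells, and the 147 cells just outside with 2 Meis2 UMIs carried 343 and 486. Pbx3 stood at 70.9 CPM just inside and 55.9 just outside. The 329 cells with a single Sp8 or Sp9 UMI had 340 CPM of Gad2 and 281 of Pbx3, against 196 and 202 in the 597 neurons with Meis2 and no Sp8 or Sp9. On Stmn2 and Dcx, 8 cells held exactly 3 UMIs and 6 cells outside held 2.

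Markers that the rule did not use were then set beside the other neurons. Both groups passed the same cut on Stmn2 and Dcx, so close levels cannot check the label of neurons. Tubb3, the neuronal beta-tubulin, was at 3357 CPM in the Meis2 Sp8/Sp9 neurons and 3436 in the other neurons, and Snap25, of the machinery that releases transmitter, at 173 and 115. None of the 6 neuron markers compared, these 2 included, was past 2-fold. Markers of microglia summed to 0.557 CPM, those of endothelial cells to 2.12, of mural cells to 2.34 and of fibroblasts and mesenchyme to 3.56. Cx3cr1, P2ry12, C1qa and Tyrobp of microglia were at 0. Radial glia markers summed to 829 CPM in the Meis2 Sp8/Sp9 neurons and 769 in the other neurons.

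Levels in CPM were then compared between the Meis2 Sp8/Sp9 neurons and the other neurons of the run. A fold is the ratio of the 2 levels after adding 5 CPM to each, over genes with at least 5 CPM in either group. Past 2-fold, 74 of 10717 genes were higher in the Meis2 Sp8/Sp9 neurons, 0.69% of those compared, and 73 were lower, 0.681%. The median fold of all compared genes was 1.02.

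The Meis2 Sp8/Sp9 neurons carried more RNA for making and storing GABA. Gad2, an enzyme that makes GABA, stood at 360.0 CPM (95% exact Poisson interval 348 to 373) against 117 (115 to 119) in the other neurons. Gad1, its sister enzyme, stood at 121 against 41.0, and Slc32a1, which loads GABA into vesicles, at 139 against 40.9. The folds were 2.99, 2.73 and 3.13. Of the 5 GABA genes compared, these 3 were past 2-fold and 0 were lower, with a list median of 2.73 beside 1.02 for all genes. Abat, which breaks GABA down, was at 48.4 against 44.7.

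Slc17a6, the vesicular transporter that marks most glutamate neurons of the hypothalamus, went the other way. It stood at 12.2 CPM (10.1 to 14.8) against 50.8, a fold of 0.309, and was the only 1 of the 3 vesicular glutamate transporters with enough UMIs to compare. Among the Meis2 Sp8/Sp9 neurons, 850 held a UMI of Gad1, Gad2 or Slc32a1 and no Slc17a6, 69 held both kinds, 3 held Slc17a6 only and 18 held neither.

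Because deeper cells show more genes, shares of cells were also counted with 2900 UMIs drawn at random from each cell, here called thinned. A UMI of Gad1, Gad2 or Slc32a1 was then left in 80.4% of the Meis2 Sp8/Sp9 neurons (exact interval 77.7 to 82.9) and in 36.0% of the other neurons. Before thinning the shares were 97.8% and 53.2%. For Slc17a6 the thinned shares were 2.34% (1.47 to 3.52) and 11.8%, and the unthinned shares 7.66% and 28.5%. In 89 oligodendrocyte cells of P7, chosen after the data were seen as cells that should lack these genes, the thinned shares were 3.37% and 1.12%, at a median of 16987 UMIs before thinning. The share of the Meis2 Sp8/Sp9 neurons with Slc17a6 lay inside the interval of that background, 0.0284 to 6.10%. That background is 1 of 89 cells of another run and age. Its interval also held the 3.11% of the neurons with Sp8 or Sp9 and no Meis2 UMI. It cannot tell background from low expression, and the share is read as neither.

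**Figure D1:**
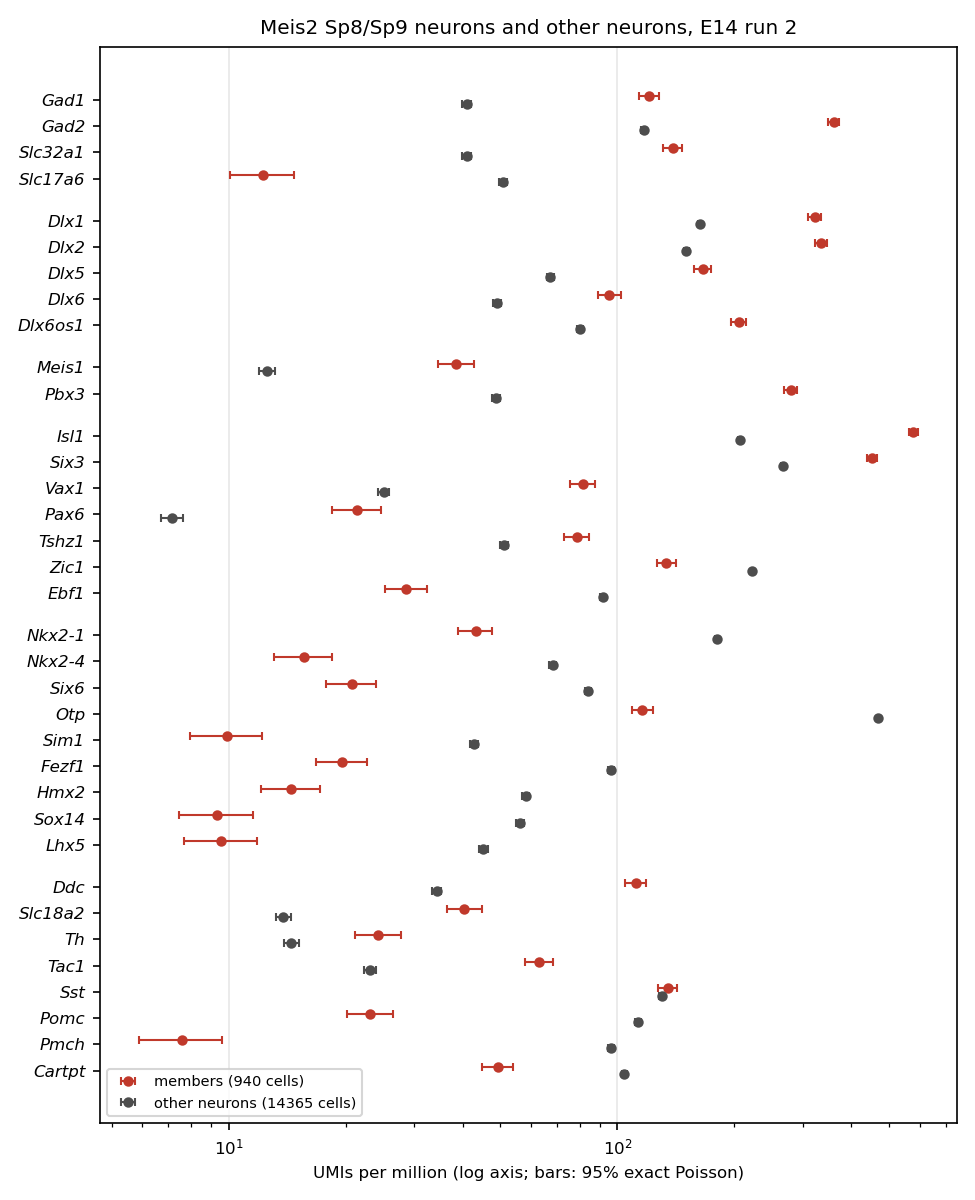
Levels of fixed-list genes in the Meis2 Sp8/Sp9 neurons (red, 940 cells) and in the other neurons of the second E14 run (grey, 14365 cells), in CPM on a log axis, with 95% exact Poisson intervals. Gad2 stands at 360.0 against 117 and Otp at 116 against 468.

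Several genes of GABA lineages were past 2-fold higher. Dlx2, a homeobox factor of such lineages, stood at 334 CPM (323 to 347) against 151 and Dlx5 at 166 against 67.3. The Dlx RNA Dlx6os1 stood at 205 against 80.1 and the synaptic gene Nrxn3 at 390 (377 to 403) against 183. These genes were among 5 of 10 compared genes of the list past 2-fold, with 0 lower and a median of 2.02. Dlx1 was at 322 against 163 and Dlx6 at 95.3 against 49.1, folds of 1.95 and 1.85. Dlx6os1 lies antisense to Dlx6, and the sources used here do not give whether counting used strand. Gsx1, a factor of the progenitors of such lineages, was at 6.01 against 16.2. When the comparison was narrowed to other neurons with a GABA gene, the folds were 1.57 for Gad2, 1.48 for Gad1, 1.69 for Slc32a1, 1.30 for Dlx2, 1.37 for Dlx5, 1.43 for Dlx6os1, 1.24 for Nrxn3 and 0.595 for Slc17a6, and none of these 8 was past 2-fold. Those other neurons were picked for a UMI of Gad1, Gad2 or Slc32a1, so lower folds of these genes were built into the choice. Thinned, Dlx2 had a fold of 1.96 and Nrxn3 1.96, and with the mean of the CPM of single cells 1.99 and 1.95. In that narrower comparison Slc9a3r1 kept a fold of 7.51, Zfp503 4.35 and Pbx3 4.07.

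Among partners of Meis2, Pbx3 had the highest fold. Pbx proteins are the DNA-binding partners of the Meis class. Pbx3 stood at 279 CPM (269 to 291) against 48.7, a fold of 5.30, and Meis1, the closest relative of Meis2, at 38.4 (34.5 to 42.7) against 12.5, a fold of 2.47 that was 1.92 against other neurons with a GABA gene. Pbx2 was at 78.6 against 78.9 and Meis3 at 67.6 against 73.6. The list had 2 of 9 genes past 2-fold upward, 0 downward and a median of 1.16. None of the 4 compared relatives of Sp8 and Sp9 was past 2-fold.

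Factors of the lateral ganglionic eminence and of olfactory interneurons were mixed, with 3 of 16 past 2-fold higher and 1 lower (median 1.28). Isl1, a LIM homeodomain factor of striatal, hypothalamic and motor neurons, was the most abundant of them at 578 CPM (562 to 594) against 207, and its fold of 2.75 was 1.96 against other neurons with a GABA gene. Vax1, a homeodomain factor of the ventral forebrain, stood at 81.4 against 25.1 and Pax6 at 21.4 against 7.15. The fold of Pax6, 2.17, was between 1.75 and 1.88 under 6 alternatives: 10 CPM added, thinned cells, Meis2 from 5 UMIs, other neurons with a GABA gene, without cluster 8, and cells with a tdTomato UMI only. Ebf1, a factor of differentiating striatal neurons, was at 28.6 (25.2 to 32.3) against 91.6, a fold of 0.348. Six3 was at 453 against 267, Foxp1 at 171 against 94.6, Tshz1 at 78.6 against 51.2 and Etv1 at 17.04 against 8.18. Scgn, a calcium sensor of olfactory interneurons, was near 0 at 0.223 and 0.706.

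Of 8 compared telencephalic genes, 0 were past 2-fold in either direction (median 0.755). In the 90 cells with Y-linked RNA only, Ebf1 was at 4.19 CPM (3 UMIs) against 72.3 in the other neurons of that kind, a fold of 0.119.

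Of 34 compared hypothalamic regional factors, 16 were past 2-fold lower, 16 within 2-fold and 2 higher, with a median of 0.526. Otp, a factor of neuroendocrine neurons, stood at 116 CPM (109 to 123) against 468, Nkx2-1, of the ventral hypothalamus, at 43.2 (39.0 to 47.7) against 181, and Fezf1, of the ventromedial nucleus, at 19.6 against 96.5. Six6, Nkx2-4, Sim1, Hmx2, Sox14 and Nhlh2 were also among the lower ones, but the fold of Sim1 was 0.617 against other neurons with a GABA gene. Isl1 and Vax1 were the pair past 2-fold higher. Called doublets carried much of what Otp there was: without them Otp was at 46.4 CPM and its fold was 0.108, and the fold of Nkx2-1 went from 0.260 to 0.152.

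Of 17 compared neuropeptide genes, 8 were past 2-fold lower and 1 higher (median 0.571). Tac1, the precursor of substance P, was the higher 1 at 63.0 CPM (57.9 to 68.4) against 23.1. Pmch, of melanin-concentrating hormone, stood at 7.57 against 96.5, Pomc at 23.2 against 113, and Avp, the vasopressin gene, at 1.89 against 45.3. Sst, the somatostatin gene, was at 135 (127 to 143) against 130.0, but at 13.96 against 117 among the cells with Y-linked RNA only. Of the genes for other transmitters, Ddc, which makes dopamine and serotonin from their precursors, stood at 112 (105 to 119) against 34.3, and Slc18a2, the vesicular monoamine transporter, at 40.4 (36.4 to 44.8) against 13.8. Against other neurons with a GABA gene, the folds of Tac1, Ddc and Slc18a2 were 1.95, 1.88 and 1.75, and in the cells with Y-linked RNA only that of Slc18a2 was 1.99. Th, which starts dopamine synthesis, was at 24.3 against 14.49, a fold of 1.502, and Slc6a3, the dopamine transporter, had 0 UMIs in the Meis2 Sp8/Sp9 neurons.

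Maturation genes differed little, but of 10 compared proliferation genes 3 were past 2-fold higher and 0 lower (median 1.80). Thinned, a UMI of Mki67 or Top2a was seen in 5.64% of the Meis2 Sp8/Sp9 neurons and 3.06% of the other neurons. None of 22 maturation genes was past 2-fold (median 1.04), and 0 of 16 newborn-neuron genes was higher while 3, Nhlh2, Neurod1 and Ebf3, were lower. Of 22 genes of migration and guidance, 1 was past 2-fold, the ephrin receptor Epha4 at 100.5 CPM against 38.7. In the retinoid pathway, Aldh1a3, which makes retinoic acid, was at 11.02 against 1.12, a fold of 2.62, and Rxrg, a retinoid X receptor, was past 2-fold lower. Cluster 5 held 47.5% of the Aldh1a3 UMIs, and the fold was 1.85 without it, 1.89 with 10 CPM added and 1.70 in the cells with Y-linked RNA only. None of 6 stress genes was past 2-fold. Of 17 ion channel and receptor genes, 1 was lower, the calcium channel subunit Cacna2d1 at 20.04 against 82.2. Of 11 prethalamic and thalamic genes, 3 were higher and 2 lower, among the lower Lhx5, a LIM homeodomain factor, at 9.58 against 45.2.

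The 15 genes with the highest folds of at least 30 UMIs included Slc9a3r1, Pbx3, Zfp503, Slc30a3, 2700033N17Rik, Gucy1a1, Esrrg, Ccnd2, Parm1, Cacna2d2, Gsc, Slc32a1, Pclaf and Top2a. Slc9a3r1, a scaffold that anchors membrane proteins to the actin skeleton, stood at 98.1 CPM (91.7 to 105) against 6.34, a fold of 9.09. Zfp503, a zinc finger repressor of striatal development, stood at 223 (213 to 233) against 38.3. Slc30a3, a vesicular zinc transporter, was at 28.2 against 1.39, the orphan nuclear receptor Esrrg at 26.7 against 3.18, and Cacna2d2, a calcium channel subunit, at 103 against 28.1. Thinned, Zfp503 was seen in 38.0% of the Meis2 Sp8/Sp9 neurons and 9.34% of the other neurons, and Slc9a3r1 in 17.3% and 1.47%.

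The transcript 2700033N17Rik was at 26.1 CPM (22.8 to 29.6) against 1.30. Its gene is a lincRNA at chr2:116066218-116067444 on the minus strand in GENCODE, 378 bases upstream of Meis2 on the same strand. Whether its reads come from Meis2 transcripts was not tested. It is part of the counts of named genes given here, and supports nothing apart from the gene that chose the cells.

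Ccnd2, a cyclin of the start of the cell cycle, and Pclaf and Top2a, of DNA replication and mitosis, were unevenly spread over the cells. Ccnd2 stood at 215 CPM against 53.0, but the thinned share of cells with it was 11.49% against 8.27%. A cluster of 33 cells held 90.3% of the Top2a UMIs, 82.1% of those of Pclaf and 42.5% of those of Ccnd2. Without that cluster Top2a had a fold of 0.482, Pclaf 0.798 and Ccnd2 2.32. The cluster was left out of the Meis2 Sp8/Sp9 neurons only, so lower folds of these genes were built in. Of the other neurons, 7.18% held a UMI of Mki67 or Top2a, and these were kept. In cells with a tdTomato UMI only, Top2a had a fold of 1.97, Pclaf 1.86, Mki67 1.52 and Ccnd2 2.10. Cluster 5, of 102 cells, held a further 594 of the 1930 Ccnd2 UMIs. In the cells with Y-linked RNA only, of which the cluster of 33 cells held 0, Ccnd2 had a fold of 0.262.

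The 10 genes with the lowest folds were Pmch, Avp, Sox14, C130093G08Rik, Pomc, Fezf1, Otp, Nkx2-1, Chchd10 and Uncx. Uncx, a homeobox gene, was at 22.4 CPM against 96.2 (a fold of 0.271, and 0.563 against other neurons with a GABA gene), Sox14 at 9.35 against 56.2 and the mitochondrial gene Chchd10 at 32.2 against 133. The 717 cells that held Xist without Y-linked RNA gave all 15 higher and all 10 lower genes past 2-fold in the same direction. In the cells with Y-linked RNA only, 12 of 15 and 10 of 10 were past 2-fold in the same direction, with Ccnd2, Pclaf and Top2a the exceptions. Both sets are part of the cells in which these genes were picked, and the 717 cells are 76.3% of them. The counts were thus partly fixed in advance and are a description only. The rule for these genes left out the rule genes and sex-linked, ribosomal and mitochondrial genome genes.

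To separate what went with Meis2 from what went with Sp8 or Sp9, the neurons of the run were set side by side in 4 groups: the 940 Meis2 Sp8/Sp9 neurons, 597 neurons with at least 3 Meis2 UMIs and no Sp8 or Sp9, 2027 with Sp8 or Sp9 and no Meis2, and 10450 with none of the 3. Neurons with 1 or 2 Meis2 UMIs were left out. Of the Meis2 Sp8/Sp9 neurons, 35% held a single UMI of Sp8 or Sp9. A neuron with no UMI of these genes may thus still express them, and alone refers to the UMIs seen. Against the neurons with Meis2 alone, 15 of 10791 genes were past 2-fold higher in the Meis2 Sp8/Sp9 neurons (0.139%) and 83 lower (0.769%). Against the neurons with Sp8 or Sp9 alone, 46 of 10675 were higher (0.431%) and 33 lower (0.309%).

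A first set of genes was high in both groups with Meis2. Zfp503 stood at 223 CPM in the Meis2 Sp8/Sp9 neurons, 183 with Meis2 alone, 40.8 with Sp8 or Sp9 alone and 29.5 with none. Pbx3 ran in the same order at 279, 202, 56.6 and 38.6. Slc9a3r1 stood at 98.1, 51.7, 4.98 and 3.42. In each of the 3 genes both groups with Meis2 were higher than both groups without it.

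A second set followed Sp8 and Sp9. Dlx2 stood at 334 CPM in the Meis2 Sp8/Sp9 neurons, 135 with Meis2 alone, 403 with Sp8 or Sp9 alone and 93.1 with none. Dlx1 stood at 322, 159, 409.6 and 110.2, and Dlx6os1 at 205, 79.1, 232 and 43.6. For these 3 genes the neurons with Sp8 or Sp9 alone were the highest and the Meis2 Sp8/Sp9 neurons came next.

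A last set was highest in the Meis2 Sp8/Sp9 neurons. Isl1 stood at 578 CPM, with 316, 228 and 186 in the neurons with Meis2 alone, Sp8 or Sp9 alone and none. Gad2 stood at 360.0, 196, 261 and 79.6, Six3 at 453, 215, 363 and 250.3 and Vax1 at 81.4, 32.2, 53.1 and 17.9. Thinned, a GABA gene was seen in 80.4% of the Meis2 Sp8/Sp9 neurons, 53.8% with Meis2 alone, 63.5% with Sp8 or Sp9 alone and 28.2% with none.

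**Figure D2:**
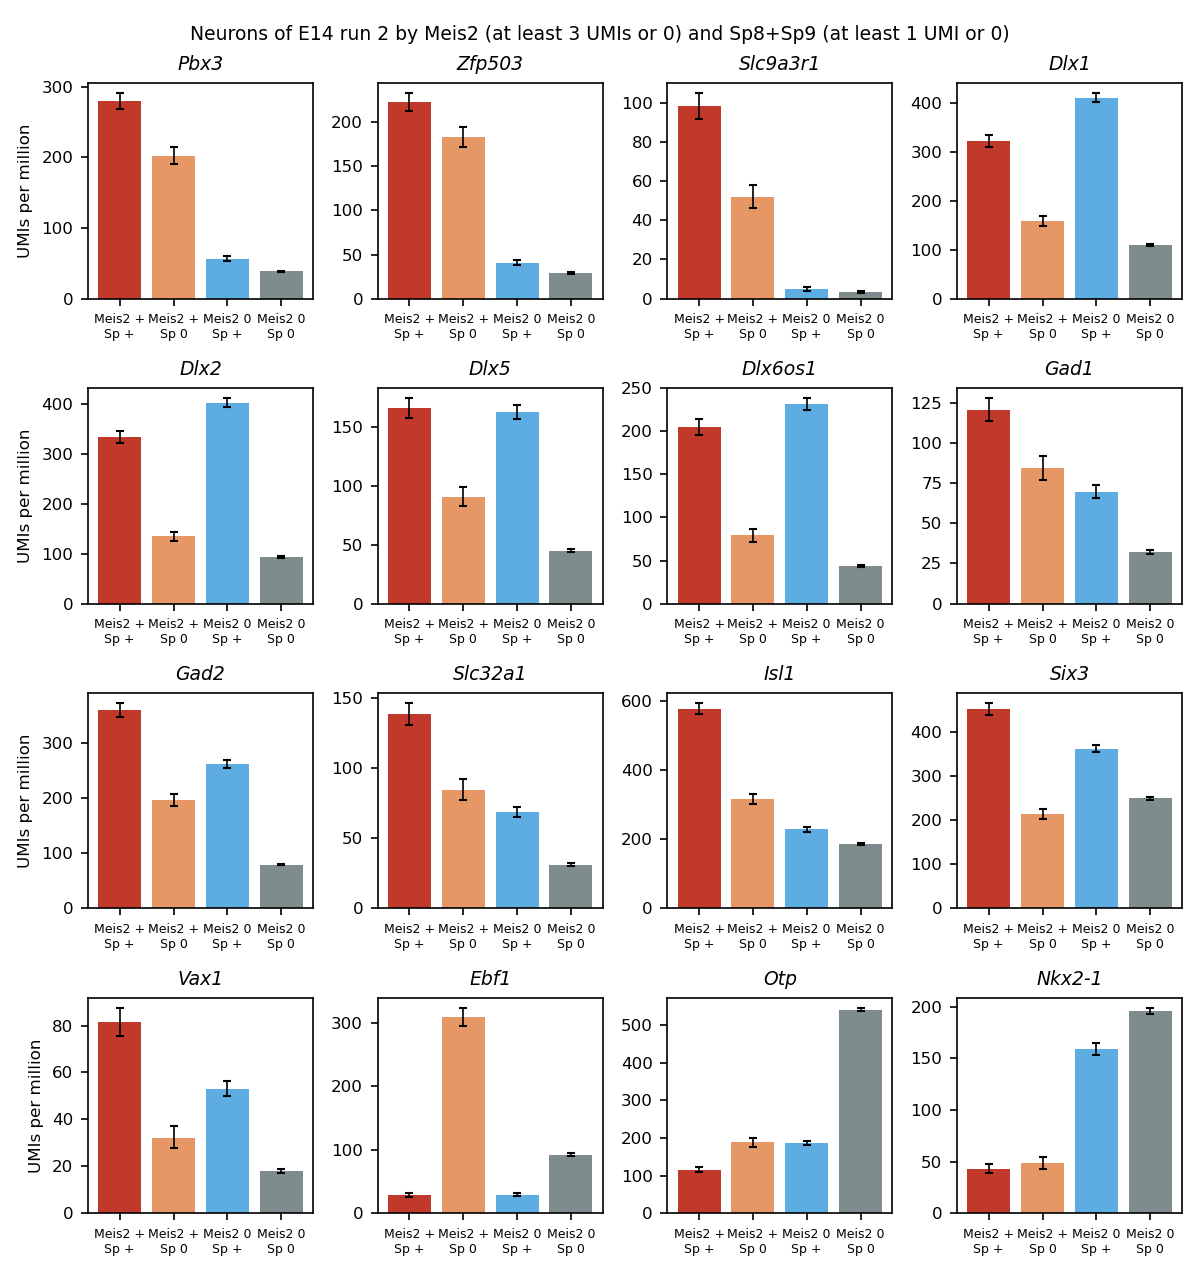
Levels of 16 genes (CPM; bars start at 0; whiskers are 95% exact Poisson intervals) in neurons of the second E14 run split by Meis2 (at least 3 UMIs or 0) and by Sp8 and Sp9 together (at least 1 UMI or 0). Zfp503 follows Meis2 (223 and 183 against 40.8 and 29.5), Dlx2 follows Sp8 and Sp9 (334 and 403 against 135 and 93.1), and Isl1 is highest where both are present (578).

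Several lists differed between the neurons with Meis2 alone and the Meis2 Sp8/Sp9 neurons. Of 10 compared telencephalic genes, 9 were past 2-fold lower in the Meis2 Sp8/Sp9 neurons (median 0.347 beside 1.01 for all genes), among them Tbr1 at 6.12 CPM against 106, Neurod2 at 23.6 against 235 and Neurod6 at 19.2 against 224, all factors of cortical glutamate neurons. Ebf1 was at 28.6 against 309. Of 22 migration and guidance genes 5 were lower, Robo2, a guidance receptor, at 42.3 against 123, and of 7 retinoid genes 3 were lower. Of 10 Dlx and GABA lineage genes 4 were higher. tdTomato, the reporter on which cells were sorted, was not seen in 18.6% of the neurons with Meis2 alone (15.6 to 22.0), 7.66% of the Meis2 Sp8/Sp9 neurons (6.04 to 9.55) and 4.61% of the other neurons (4.27 to 4.96). The part of cells without the reporter in these differences was not tested.

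Against the neurons with Sp8 or Sp9 alone, hypothalamic factors were among the genes that differed. Of 31 compared, 10 were past 2-fold lower in the Meis2 Sp8/Sp9 neurons and 1 higher. Nkx2-1 was at 43.2 CPM against 159, Six6 at 20.7 against 126 and Lhx6, a factor of GABA neurons of the hypothalamus and cortex, at 1.78 against 31.5. Pbx3 and Isl1 were past 2-fold higher in the Meis2 Sp8/Sp9 neurons, and so was Tac1 at 63.0 against 13.95. Of 7 telencephalic genes, 2 were higher and 2 lower. Against the neurons with none of the 3 factors, 112 of 10736 genes were past 2-fold higher (1.04%) and 84 lower (0.782%). Against the 4386 neurons with at least 2 Otp UMIs, 8 of 10 Dlx and GABA lineage genes were past 2-fold higher (129 of 10738 genes, 1.2%, were higher and 113, 1.05%, lower), Dlx2 with 334 against 46.5.

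The Meis2 Sp8/Sp9 neurons were then clustered on variable genes from which the rule genes and all genes of the fixed lists had been removed (2000 variable genes, 20 components, resolution 0.5), so that the fixed lists could be described over the clusters. Genes outside the lists, among them Gsc, Zfp503, Slc9a3r1, Calb2, Pclaf, Ccnd2 and Uncx, were not removed and may have helped draw the clusters. Their levels and shares by cluster are a description only. There were 8 clusters of 202 to 33 cells. They are given by number and by their levels, with no cell type name. Leaving out cluster 8, the smallest, the levels ran widely: Sst from 2.09 to 1296 CPM, Tac1 from 0 to 249.1 and Ddc from 10.4 to 393. Gad2 was less varied, from 193 to 625.

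Cluster 1, of 202 cells, held Tac1 at 249.1 CPM (225 to 275) and Prdm12, a zinc finger factor of sensory and hypothalamic precursors, at 117. It had the highest Dlx5, 271. Among genes outside the lists, Calb2, a calcium-binding protein, and Slc9a3r1 led it. Sst was at 227 here, in 20.3% of its cells.

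Cluster 2, of 192 cells, had the highest Gad2, at 625 CPM (584 to 668), with Isl1 at 1088 (1033 to 1144) and Prox1, a homeobox factor of young GABA and granule neurons, at 263. Prox1os, which overlaps Prox1, was among its leading genes and may share reads with it. A GABA gene was seen in 92.7% of its thinned cells (88.1 to 96.0).

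Cluster 4, of 124 cells, held Pbx3 at 1098 CPM (1032 to 1166), in 98.4% of its cells, and Six3 at 951 (890.2 to 1015). Foxp1, a forkhead factor of striatal projection neurons, was at 488 and Zfp503 at 606. Slc17a6 had 0 UMIs in it.

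Cluster 6, of 80 cells, had the highest Ddc and Th. Ddc stood at 393 CPM (352 to 437), in 73.8% of its cells, and Th at 125 (103 to 152), in 24 of the 80. Ghrh, the gene of growth hormone-releasing hormone, was at 89.1, seen in 16.2% of the cells, and Etv1 at 78.6. Gsc, the homeobox gene goosecoid, was at 252.1, and the cluster held 55.7% of all Gsc UMIs of the Meis2 Sp8/Sp9 neurons. Of the Th UMIs it held 49.1% and of the Ddc UMIs 33.4%. Slc18a2 was at 53.9 here and at 77.5 in cluster 5.

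Cluster 7, of 43 cells, had Sst at 1296 CPM (1185 to 1415), but in 34.9% of its cells. Isl1 stood at 1179 and was seen in all 43, Prox1 at 309.7, Tshz1 at 216 and Nrp2, a semaphorin receptor, at 117. Tac1, Bcl11b and Prdm12 had 0 UMIs in it, with an exact Poisson interval up to 9.60 CPM.

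Cluster 5, of 102 cells, held Bcl11b, a factor of striatal neurons, at 339.6 CPM, the zinc finger gene Zic1 at 299.6 and the progenitor gene Nes at 93.0. Ebf1 was at 139, in 8.82% of its cells. Aldh1a3 was at 60.7. Gap43, of growing axons, was at 292, the lowest of the clusters. tdTomato was seen in 70.6% of its cells, against 92.3% of all Meis2 Sp8/Sp9 neurons. Cells from outside the labelled lineage and labelled cells with no reporter UMI cannot be told apart in it.

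Cluster 8, of 33 cells, was cycling: 97.0% held a UMI of Mki67 or Top2a, with Top2a at 1406 CPM (1296 to 1523). Stmn2 was at 610, the lowest of the clusters. tdTomato was seen in 54.5% of these cells, and 30.3% were called doublets.

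Cluster 3, of 164 cells, had a median of 15587 UMIs and 68.9% of its cells were called doublets, against 0 to 30.3% in the other clusters. It held 80.5% of the Otp UMIs of the Meis2 Sp8/Sp9 neurons and 75.5% of those of Slc17a6. Otp stood at 318 CPM (297 to 340), Neurod2 at 73.5 and Neurod6 at 60.6. Without this cluster the fold of Otp was 0.0782, of Uncx 0.116, of Sox14 0.128, of Pmch 0.0726 and of Slc17a6 0.166. The cluster was left out of the Meis2 Sp8/Sp9 neurons only, so lower folds of these genes were built in. Of the other neurons, 9.52% were called doublets, and these were kept. The part of doublets in these levels beyond these values was not tested. Without the cluster, 114 genes were past 2-fold higher against other neurons and 119 lower, in place of 74 and 73.

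**Figure D3:**
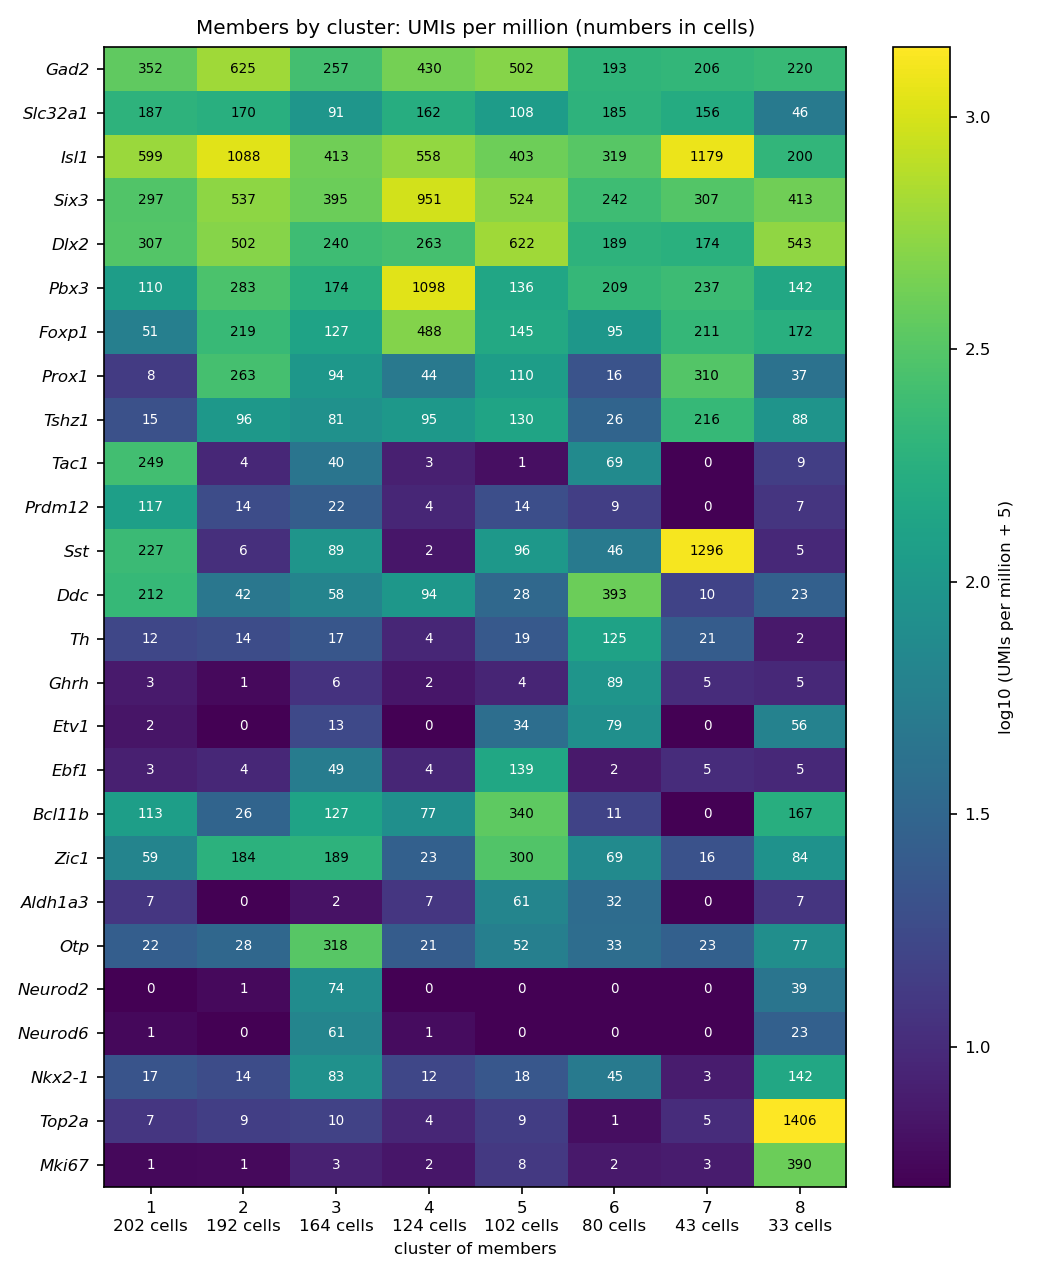
Levels of 26 genes over the 8 clusters of the Meis2 Sp8/Sp9 neurons, as CPM (numbers) coloured on a log10 scale after adding 5. Tac1 is highest in cluster 1 (249.1), Pbx3 in cluster 4 (1098), Ddc in cluster 6 (393), Sst in cluster 7 (1296) and Otp in cluster 3 (318).

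Splitting by the Sp gene seen gave smaller differences. Sst was at 271 CPM in the cells with Sp8 only, 62.1 with Sp9 only and 153 with both, and Tac1 at 105.5, 39.4 and 70.1. Gad2 was at 294, 382 and 371. With 1 or 2 UMIs of Sp8 or Sp9 in most cells, a cell with no UMI of either gene may still express it. Splitting by Meis2, Pbx3 was at 70.9 CPM in the cells with 3 Meis2 UMIs, 129 with 4 to 6 and 345 with more.

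The same rule was applied to the other runs. It took 9.79% of the neurons in the first E11 run (19 cells, exact interval 6.00 to 14.9) and 9.67% in the second (266 cells, 8.59 to 10.8), and 13.7% in the first E14 run (40 cells, 9.94 to 18.1) against 6.14% in the second. At P0 the shares were 3.06% (50 cells) and 1.53% (117 cells), and at P7 0.206% (10 cells, 0.0988 to 0.379). Counting intervals of the 2 E14 runs did not overlap, so runs of the same age differed by more than counting error. Depth differed too, from a median of 6059 UMIs per cell in the first P0 run to 15369 in the second E11 run. With every cell thinned to 2900 UMIs and at least 1 UMI asked of each part of the rule, the shares were 5.66% and 5.79% at E11, 8.97% and 4.14% at E14, 1.24% and 0.552% at P0 and 0.0368% at P7. Under both forms every run of E11 and E14 lay above every run of P0, and these above P7.

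**Figure D4:**
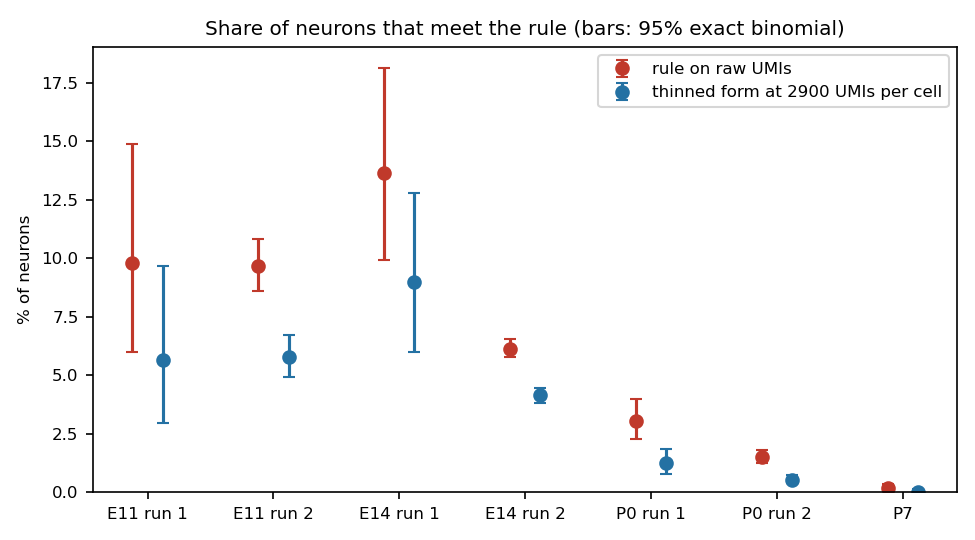
Share of neurons (in percent, from 0) that met the rule in each of 7 runs, on raw UMIs (red) and in the thinned form (blue), with 95% exact binomial intervals. The second E14 run stands at 6.14% and 4.14%, the second P0 run at 1.53% and 0.552%, and P7 at 0.206% and 0.0368%.

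Over these runs some genes kept their place and others did not. Isl1 stood at 579 CPM in the Meis2 Sp8/Sp9 neurons of the second E11 run, 582 and 578 in the E14 runs and 488 and 509 in the P0 runs, each at least 2.75 times the other neurons of its run. Gad2 stood at 484, 262, 360.0, 224 and 288 in the same order, with folds of 5.43, 3.596, 2.99, 3.20 and 3.07. Pbx3 had folds of 2.06, 2.56, 5.30, 6.28 and 10.2, with levels of 214, 83.6, 279, 134 and 339.

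Dlx2 was close to the other neurons at P0. Dlx2 had folds of 3.71 in the second E11 run, 1.56 and 2.18 at E14 and 1.07 and 1.10 at P0, with levels of 385, 251, 334, 92.0 and 73.7 CPM. Gsc, seen with 0 UMIs in the Meis2 Sp8/Sp9 neurons of the second E11 run, stood at 43.0 CPM in the second E14 run and 192 (172 to 214) in the second P0 run, against 3.31 in the other neurons there. Tac1 stood at 1.81, 18.6, 63.0, 146 and 181. Slc17a6 had folds of 0.145 and 0.309 in the second runs of E11 and E14 and 0.928 in the first E14 run, where it was at 63.5 CPM.

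Of the 15 genes highest at E14, 9 were past 2-fold higher in the second E11 run (beside 0.772% of 10756 genes), 7 in the first E14 run (1.53%), 10 in the first P0 run (1.58%) and 11 in the second (1.01%). Pbx3, Zfp503 and Cacna2d2 were among those past 2-fold in all 4. The counts include 2700033N17Rik, past 2-fold in each run, whose level may follow Meis2 and so the rule. Of the 10 lowest genes, 7 were past 2-fold lower in the second E11 run (1.65%), 2 in the first E14 run (1.26%) and 9 in each P0 run (9.19% and 2.64%). Slc9a3r1, with the highest fold in the second E14 run, was past 2-fold in none of the 4, with folds of 1.24, 1.45, 0.775 and 1.48. Ccnd2 had folds of 0.419, 0.776, 0.308 and 0.544 and Top2a 0.850, 0.844, 0.461 and 0.840, below 1 in all 4, and Pclaf 0.787, 1.23, 0.299 and 0.971. The labels do not say what separates the runs of an age, and with 1 sample per age, age and sample cannot be told apart.

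**Figure D5:**
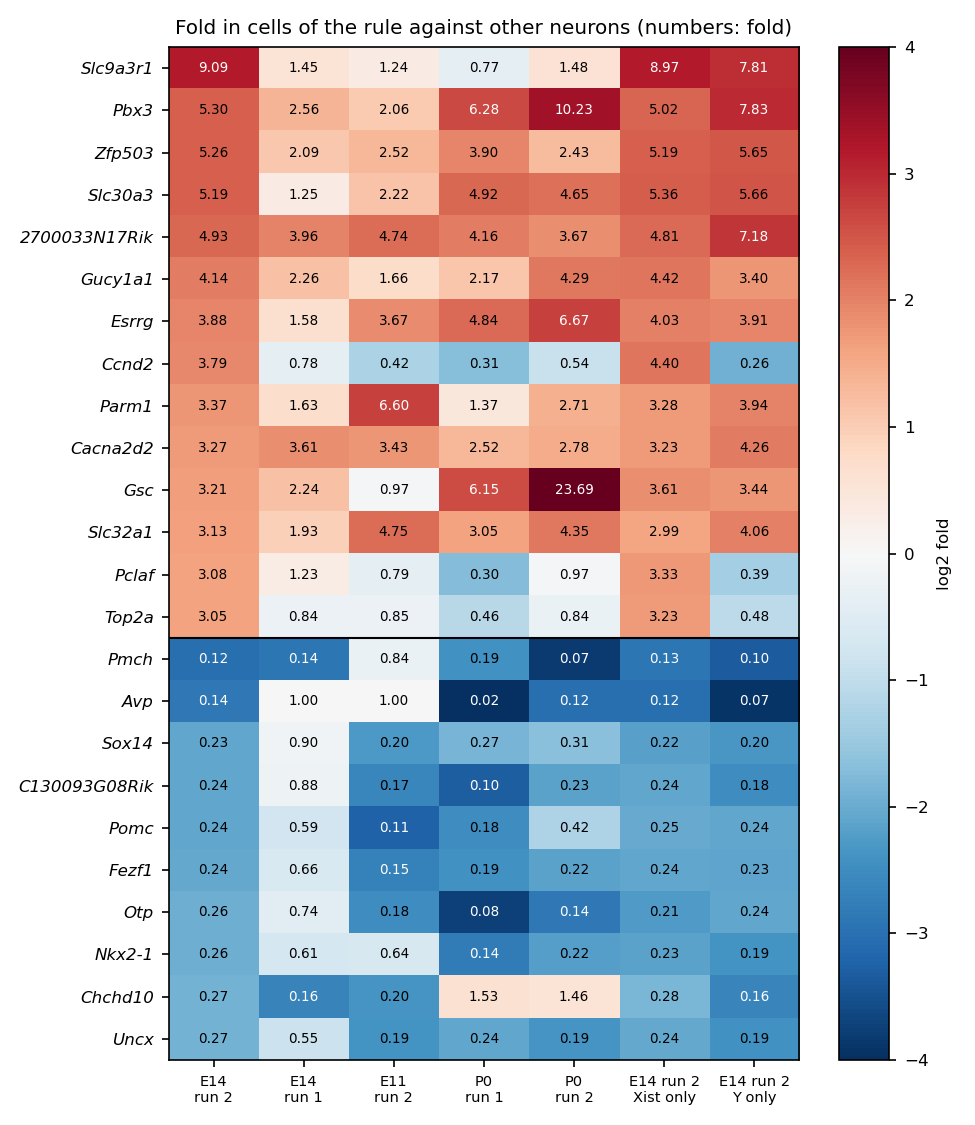
Folds of 14 of the 15 highest and the 10 lowest genes of the second E14 run (numbers, coloured by log2 fold), in Meis2 Sp8/Sp9 neurons against other neurons of the same run, for 5 runs and for 2 sets of cells of the second E14 run by sex-linked RNA. Pbx3 is at least 2.06 in every column, while Slc9a3r1 is 9.09 in the second E14 run and 0.775 to 1.48 in the other runs.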

How the data were processed

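Per the labels' protocols, sorted hypothalamic cells were sequenced with 10x 3' v3 chemistry. The authors deposited 1 integrated table of UMI counts over 28879 genes. Cell Ranger 3.0.2, Seurat and the build mm10 are named per the submitters' processing notes, and whether counting used strand is not given in the sources used here. Counts were summed over cells and scaled to CPM, with folds after adding 5 CPM, genes from 5 CPM in either group, and 2-fold as the threshold. Named genes were the 15 highest and 10 lowest folds with at least 30 UMIs, besides fixed-list genes. Clusters came from Scanpy 1.11.5 with Leiden (leidenalg 0.10.2), and doublets were called with Scrublet at an expected rate of 10% and kept. The fold calculation was also run on simulated Poisson sums with set changes. These held no spread between cells, doublets or clusters, so they bear on the arithmetic only. With 1 sample per age no test was made, and intervals (exact Poisson or Clopper-Pearson, 95%) cover counting error only. The members of the group and the gene lists were chosen with earlier results of these data known. Alternatives tried were other cutoffs, pseudocounts, filters and depths, leaving out doublets or clusters, cells by sex-linked RNA, and other neurons with a GABA gene. For folds, doublets were left out of both groups, and clusters of the Meis2 Sp8/Sp9 neurons only. Some genes of the lists are not reported here.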

Additional observations from a re-analysis of the deposited data

Results flagged for a closer look

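With the runs of an age pooled, Ccnd2 had a fold of 3.54 at E14 (213 against 56.8 CPM in the other neurons), 0.434 at E11 (101 against 240.4 CPM) and 0.496 at P0 (42.2 against 90.2 CPM). Chchd10 had a fold of 0.260 at E14 (30.9 against 133 CPM) and 1.58 at P0 (211 against 132 CPM). These genes were picked out because their folds lay on opposite sides with the runs of an age pooled, and the differences were not tested, with 1 sample per age. In the second E14 run, 42.5% of the Ccnd2 UMIs lay in the cluster of 33 cycling cells. The pooled E14 value of Ccnd2 rests on that run, since in the first E14 run its fold was 0.776, below 1 as in E11 and P0. Chchd10 had a fold of 0.157 in the first E14 run and 0.269 in the second.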

How the results depend on the processing

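No paired analysis was possible because there was 1 sample per age. Of 57 gene folds recomputed, 48 were past 2-fold. The 57 hold the 25 genes picked for the highest and lowest folds in these same cells, whose passing was fixed in advance. Over all compared genes, 0.69% were past 2-fold higher and 0.681% lower. Dropping the filter or raising it to 20 CPM could not change a fold. Under 16 alternatives, these included, 31 to 48 of the 48 stayed past 2-fold, with the 31 against other neurons with a GABA gene. That group was picked on Gad1, Gad2 and Slc32a1, which are among the 48, so the loss of these genes was built in. The alternatives by cluster and by the tdTomato UMI were among those chosen after seeing the data. Folds on the other side of 1 were, in cells with Y-linked RNA only, Ccnd2 0.262, Pclaf 0.392, Top2a 0.480 and Mki67 0.625, and without cluster 8, Pclaf 0.798, Top2a 0.482 and Mki67 0.646. Cluster 8 held 82.1% of the Pclaf UMIs. Clusters were left out of the Meis2 Sp8/Sp9 neurons only, so lower folds of Pclaf, Top2a and Mki67 without cluster 8 were built in. With 1 CPM added, 133 and 138 of the 10717 compared genes were past 2-fold higher and lower. Such genes numbered 126 and 262 in cells with Y-linked RNA only, where few UMIs reach 5 CPM, and 114 and 119 without cluster 3. Against neurons with a GABA gene 38 were lower, and the higher count is not reported here. In the settings other than 1 CPM added, the set of genes compared also changed, so these counts are not shares of the 10717. The share of neurons was 7.10% with Meis2 from 2 UMIs, 5.14% from 5, 3.99% with Sp8 and Sp9 from 2 UMIs, and 5.75% without called doublets. The GABA gene share was 97.8% unthinned, 92.0% unthinned from 2 UMIs, 72.4% at 2000 UMIs, 83.2% without doublets, 83.5% without cluster 3 and 71.1% with Y-linked RNA only. The Slc17a6 share was 7.66% unthinned, 0.957% at 2000 UMIs, 1.39% without doublets, 1.29% without cluster 3 and 1.11% with Y-linked RNA only. Thinned shares by run were 5.66% and 5.79% at E11, 8.97% and 4.14% at E14, 1.24% and 0.552% at P0 and 0.0368% at P7. With 10 to 50 cells in the smaller runs, levels there rest on few cells, and the cause of these shifts was not tested.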
